A study of Mus musculus with 12 samples.

Results

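The genes followed across 4 groups of mouse liver arrays belong to the hepatocytes that surround the central vein of the lobule and to the WNT signal that acts on them. There were 8 of the 12393 genes measured: Glul, Rhbg, Oat, Slc1a2, Axin2, Tbx3, Lect2 and Ctnnb1. Every probe set annotated with exactly 1 of these symbols was taken, which gave 13 of the 22626 probe sets tested: 2 each for Glul, Axin2 and Tbx3, 3 for Ctnnb1 and 1 for each of the other genes. The genes were chosen by role, with no threshold on any value, but with earlier results of the same arrays in view, among them the level of Oat in POR-null against wild type on the control diet. The values of that contrast are therefore given as a description, without a p-value. The choice was not blind to the other arrays either, and the p-values and ranks of the other contrasts are to be read with that limit. Total RNA came from whole liver of male C57BL/6 mice aged 6 to 8 weeks, and each Affymetrix 430A array carried RNA pooled from 3 mice. There were 3 arrays per group and 12 in all. All mice had first spent 14 days on a soya-free powdered diet (RM3). The 4 groups were POR-null mice given quercetin for 24 h, POR-null mice kept on the control diet, wild-type mice given quercetin for 24 h, and wild-type mice kept on the control diet. Quercetin, a plant flavonol, was mixed into the diet at 6.2 g per kg and is also labelled as 7 mg per mouse. POR-null mice lack cytochrome P450 reductase, the flavoprotein that hands electrons to microsomal cytochromes P450. The sources used here do not say which tissues lack it or how it was disrupted. The transcript of the disrupted gene was not used here, which leaves the genotype labels unchecked on that point. All values are log2 expression per probe set, so a difference of 1 is a doubling. A level on one probe set cannot be set against a level on another.

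Blood crosses the lobule from the portal tract to the central vein, and the hepatocytes along this path divide the work of handling nitrogen. Periportal hepatocytes make urea, while the ring of hepatocytes next to the central vein takes up the ammonium that escapes and joins it to glutamate to form glutamine. The pericentral programme is maintained by WNT ligands from the central vein, which stabilise beta-catenin in the neighbouring hepatocytes. Among the genes described, Rhbg encodes an ammonium transporter and Glul glutamine synthetase. Oat encodes ornithine aminotransferase, which turns ornithine into a precursor of glutamate, and Slc1a2 a glutamate transporter. Ctnnb1 encodes beta-catenin itself. Axin2 is a feedback inhibitor and a general target of WNT signalling, Tbx3 is a transcription factor induced by WNT in hepatocytes, and Lect2 encodes a secreted liver protein that responds to beta-catenin in mouse liver.

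Promoter sequences were read from RefSeq (GRCm38.p6) for 6 of the 8 genes, from 250 bases before to 50 bases after the transcript start listed there, and Rhbg and Tbx3 had no entry. They are shown for Oat, which was higher in POR-null liver, for Glul, which was not detectably different, and for Slc1a2 and Lect2, the 2 genes whose windows held letters of the TCF/LEF core. TCF/LEF proteins are the DNA-binding partners of beta-catenin. Capitals mark CTTTGA or CTTTGT (the TCF/LEF core) and AGGTCA (a nuclear receptor half-site), both searched on both strands. Oat lies at chr7:132576349-132576648 on the minus strand, Glul at chr1:153899679-153899978 on the plus strand, Slc1a2 at chr2:102706188-102706487 on the plus strand and Lect2 at chr13:56548489-56548788 on the minus strand. The Slc1a2 window lies inside its gene, which is listed from 102658239 to 102790784, so its start is an internal one.
Oat: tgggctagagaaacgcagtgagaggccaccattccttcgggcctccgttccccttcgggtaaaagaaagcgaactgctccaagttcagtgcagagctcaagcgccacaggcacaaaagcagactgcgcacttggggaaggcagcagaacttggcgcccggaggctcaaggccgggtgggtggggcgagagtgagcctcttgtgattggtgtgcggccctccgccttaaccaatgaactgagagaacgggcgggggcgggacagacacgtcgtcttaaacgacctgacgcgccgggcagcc
Glul: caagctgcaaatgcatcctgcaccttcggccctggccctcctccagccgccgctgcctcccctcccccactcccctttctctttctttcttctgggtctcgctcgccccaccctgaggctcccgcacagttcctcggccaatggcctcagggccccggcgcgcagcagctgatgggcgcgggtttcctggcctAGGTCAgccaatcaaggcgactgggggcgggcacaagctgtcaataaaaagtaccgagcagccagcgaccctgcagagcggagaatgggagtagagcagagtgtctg
Slc1a2: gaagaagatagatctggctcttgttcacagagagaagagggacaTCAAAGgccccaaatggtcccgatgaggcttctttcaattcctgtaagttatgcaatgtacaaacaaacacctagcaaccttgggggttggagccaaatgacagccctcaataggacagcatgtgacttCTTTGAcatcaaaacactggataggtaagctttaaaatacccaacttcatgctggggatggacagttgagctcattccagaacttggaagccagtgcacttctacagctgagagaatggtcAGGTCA
Lect2: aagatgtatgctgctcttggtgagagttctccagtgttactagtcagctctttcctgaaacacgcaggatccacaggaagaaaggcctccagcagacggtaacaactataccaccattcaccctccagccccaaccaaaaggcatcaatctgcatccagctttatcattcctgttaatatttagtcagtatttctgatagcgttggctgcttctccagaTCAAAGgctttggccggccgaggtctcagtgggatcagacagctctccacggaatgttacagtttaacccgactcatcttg
Read on the opposite strand, CTTTGA appears as TCAAAG, and the letters of the 2 motifs did not overlap. The Slc1a2 window held 2 matches to the TCF/LEF core, which began 206 and 77 bases before the start, and the Lect2 window held 1, which began 31 bases before it. Of 32851 RefSeq windows of the same length, 31.2% held CTTTGA or CTTTGT. Such letters were found for 2 of the 6 genes, which is near that share. Ctnnb1 had 2 windows, neither of which held them. AGGTCA was present in 16.3% of all windows and in those of Glul and Slc1a2. The Oat window held neither motif, which says only that these letters are not within it.

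Array medians lay between 5.93 and 5.99, and the lowest and highest correlations between 2 arrays of a group were r = 0.988 and 0.993. The hepatocyte markers Alb, Apoa1, Ttr and Fgb, secreted plasma proteins, had means of 12.5 or more in these arrays, whose labelled tissue is liver. In whole liver, fewer cells of a type and less RNA per cell cannot be told apart. The labels do not give the mice behind each pool, so p-values measure the spread between pools. A plot of the 13 probe sets in every array shows Rhbg and Oat with the POR-null arrays above the wild-type arrays on both diets, and the other genes with overlapping groups on at least 1 diet.

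**Figure D1:**
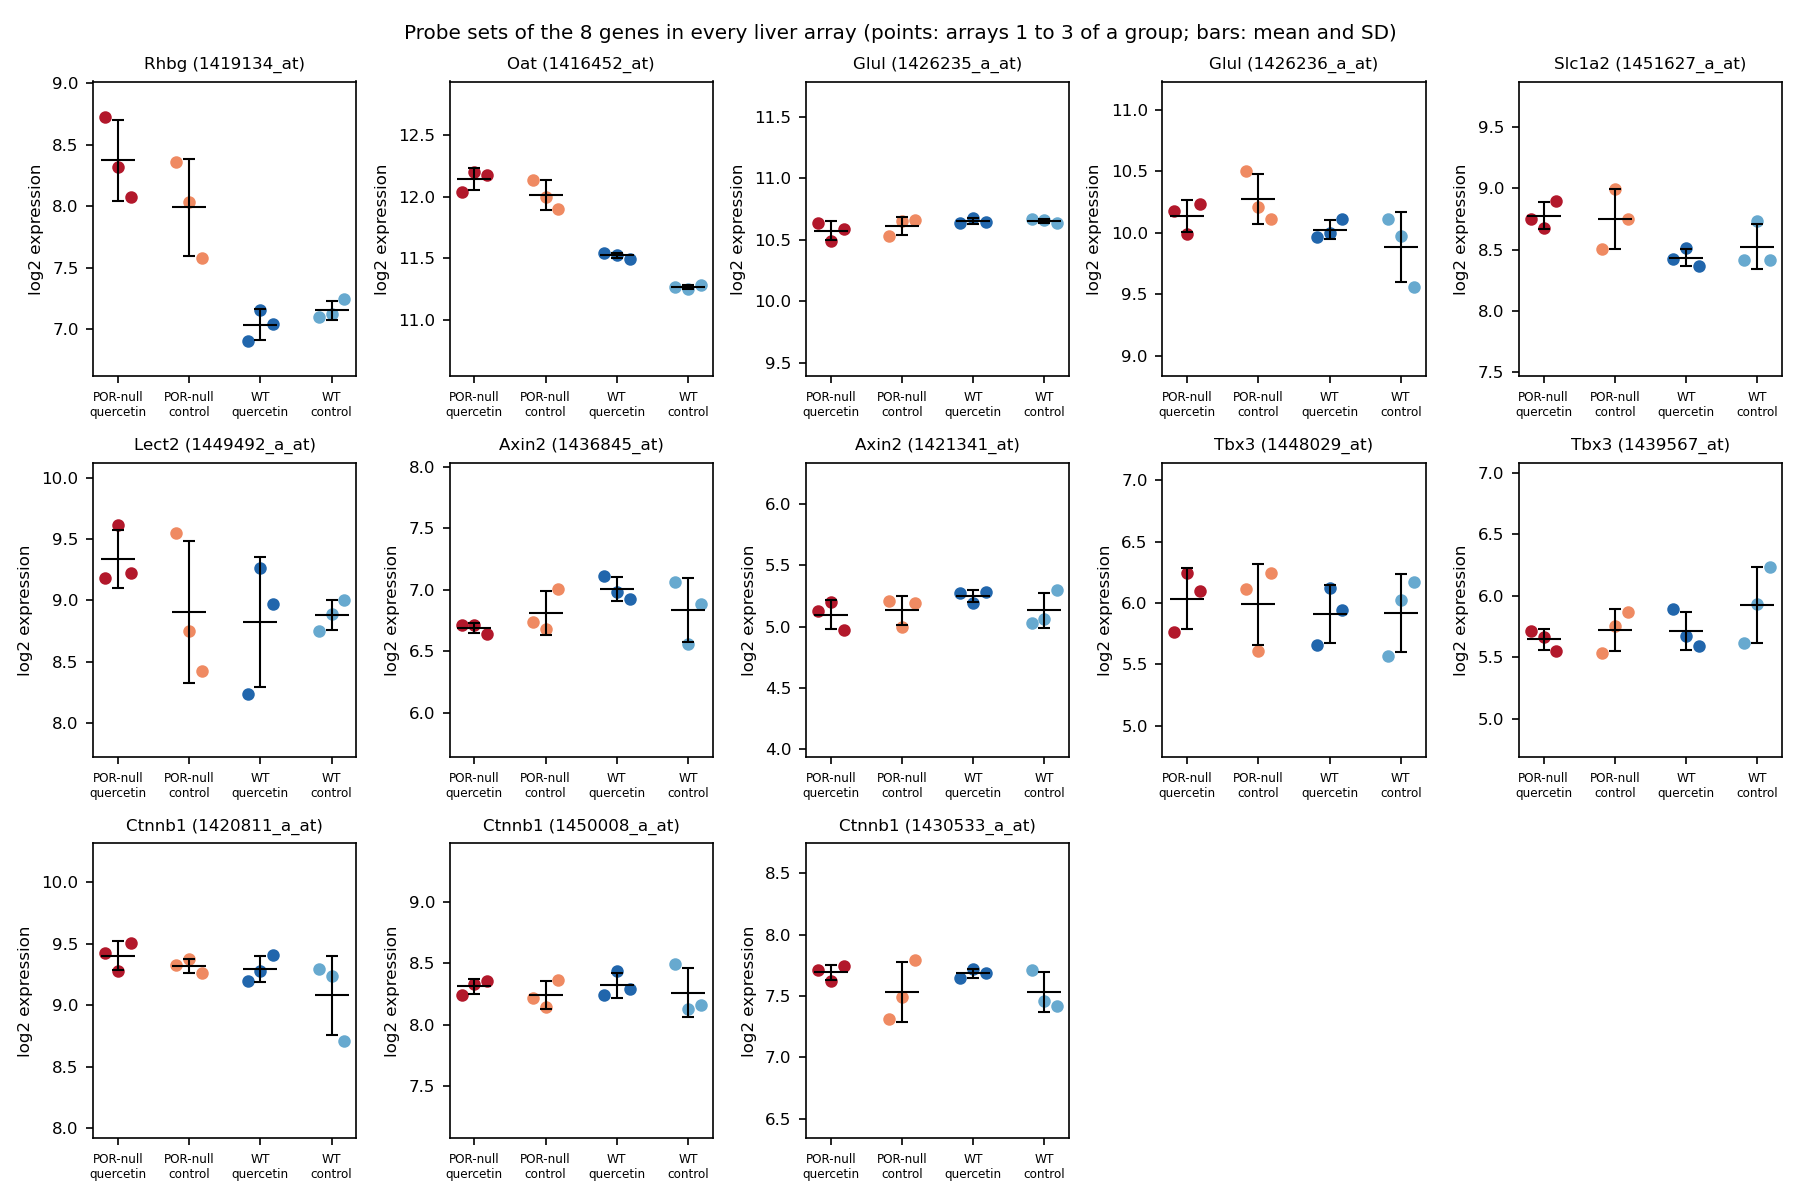
Log2 expression (y axis, each panel spanning the same number of log2 units) of the 13 probe sets in the 4 groups (x axis), with points for arrays 1 to 3 of a group and bars for mean and SD. Rhbg and Oat stand higher in all POR-null arrays than in all wild-type arrays, while Glul probe set 1426235_a_at spans only 0.19 log2 units over the 12 arrays.

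POR-null was first compared with wild type where all mice had received quercetin. Rhbg and Oat rose and the other 6 genes did not pass. By limma, with Benjamini-Hochberg adjustment over all 22626 probe sets and a threshold of 0.05, 2 of the 13 probe sets were called, both higher. Over all probe sets 2.33% were called in this contrast, 1.75% higher and 0.579% lower. An unadjusted p under 0.05 was found for 4 of the 13, beside 17.0% of all probe sets. The median log2 difference of the 13 probe sets was 0.11, beside -0.02 for all probe sets.

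Rhbg, the ammonium transporter, had 8.72, 8.32 and 8.08 in the POR-null quercetin arrays, against 6.91, 7.16 and 7.04 in the wild-type quercetin arrays. The lowest POR-null array stood above the highest wild-type array, and the spread among POR-null arrays (SD 0.33) was larger than that among wild-type arrays (SD 0.13). The log2 difference was 1.34 ± 0.18 (SE, n = 3 arrays per group), or 2.53-fold, with a 95% confidence interval of 0.96 to 1.72 and a limma adjusted p of 0.0022. By its p-value it ranked 23rd of all probe sets. The call held in each of the 20 alternative fits, with differences of 1.16 to 1.49.

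Oat, the ornithine aminotransferase, had 12.04, 12.21 and 12.18 in the POR-null quercetin arrays, against 11.54, 11.53 and 11.50 in the wild-type quercetin arrays. The groups did not overlap and both were tight, with SDs of 0.09 and 0.02. Oat differed by 0.62 ± 0.08 (SE, n = 3 arrays per group), or 1.54-fold, with an interval of 0.45 to 0.79 and a limma adjusted p of 0.0018. It ranked 20th of all probe sets and was called in each of the 20 alternative fits, at 0.59 to 0.67.

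Glul, the glutamine synthetase that uses the ammonium, was not detectably different on this diet. Its brighter probe set, 1426235_a_at, had 10.64, 10.49 and 10.59 in POR-null quercetin arrays, against 10.64, 10.68 and 10.64 in wild-type quercetin arrays. The arrays overlapped, and the interval of the difference ran from -0.24 to 0.08 around -0.08 (limma adjusted p = 0.64). The other probe set, 1426236_a_at, gave 0.11 with an interval of -0.18 to 0.40 (limma adjusted p = 0.73). Both intervals lay below the whole interval of Rhbg, and both also lay below that of Oat. These intervals belong to different probe sets, and the differences between genes were not tested.

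Slc1a2, the glutamate transporter, had 8.75, 8.68 and 8.89 in POR-null quercetin arrays, against 8.43, 8.51 and 8.37 in wild-type quercetin arrays. The groups did not overlap, but the difference of 0.34 ± 0.12 (SE, n = 3 arrays per group) did not pass (limma adjusted p = 0.17). Lect2 had 9.18, 9.61 and 9.23 in POR-null quercetin arrays, against 8.23, 9.26 and 8.97 in wild-type quercetin arrays. Here the groups overlapped, and the difference of 0.52 ± 0.26 (SE, n = 3 arrays per group) did not pass (limma adjusted p = 0.33). It was 0.23 without wild-type quercetin array 1.

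Axin2, the WNT feedback gene, stood on the other side of 0. Its brighter probe set, 1436845_at, had 6.72, 6.71 and 6.64 in POR-null quercetin arrays, against 7.12, 6.98 and 6.93 in wild-type quercetin arrays. The groups did not overlap, yet the difference of -0.32 ± 0.13 (SE, n = 3 arrays per group) did not pass (limma adjusted p = 0.22). The dimmer probe set, 1421341_at, differed by -0.15 (limma adjusted p = 0.49). The probe sets of Tbx3 differed by 0.13 and -0.07, and those of Ctnnb1 by 0.11, 0.01 and -0.01, with limma adjusted p of 0.72 or more. The dimmer Axin2 probe set and both Tbx3 probe sets had means of 5.15 to 5.96 over the 12 arrays, near or below the median of all values (5.96). In all, 4 of 13 probe sets had groups that did not overlap in this contrast, beside 25.0% of all probe sets. Of these 3 stood higher in POR-null, beside 11.9%, and 1 lower, beside 13.0%.

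**Figure D2:**
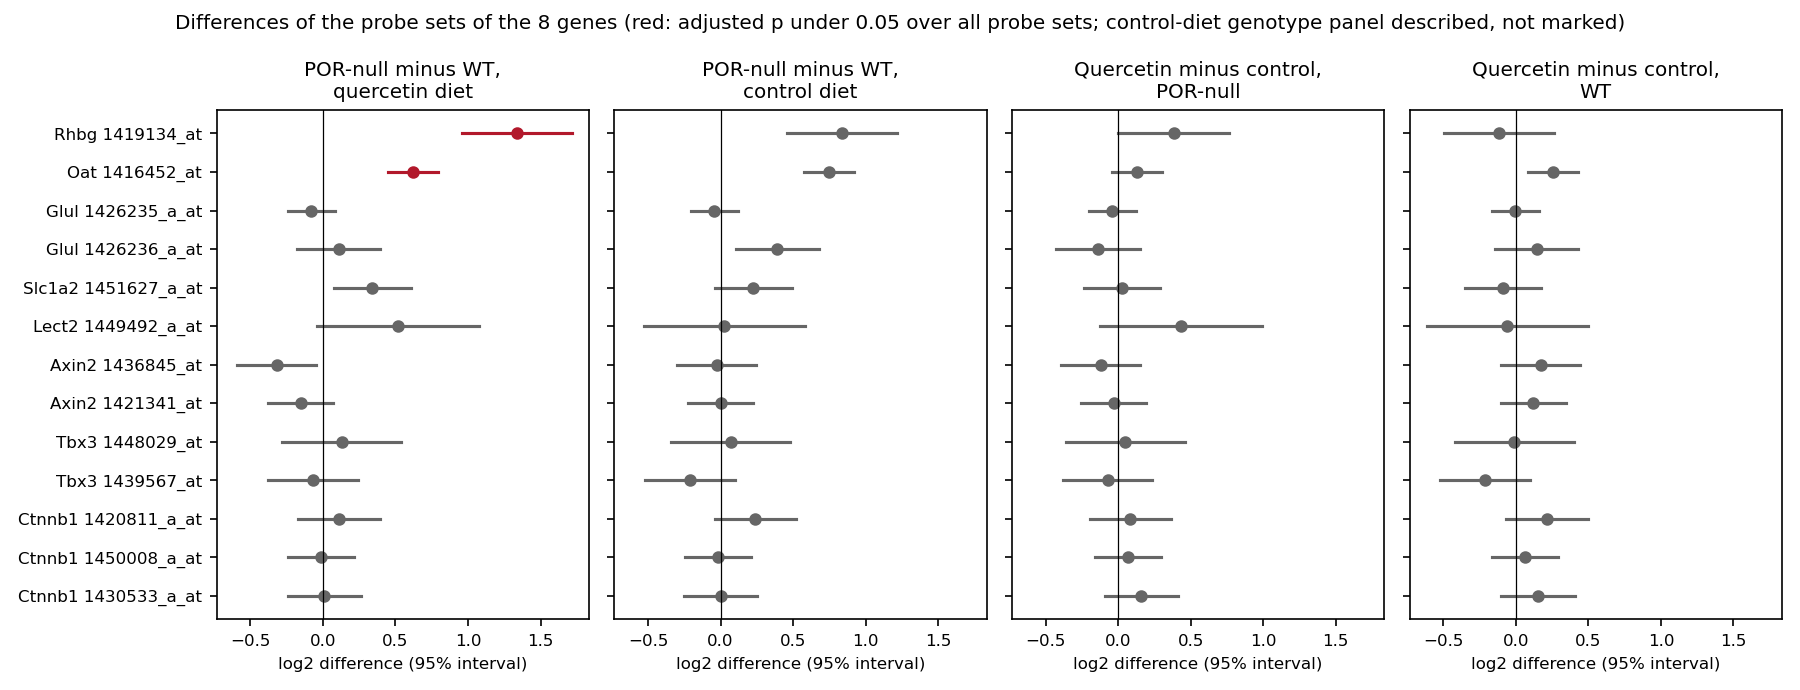
Log2 differences (x axis, with 95% confidence intervals) of the 13 probe sets (rows) for POR-null minus wild type on each diet and for quercetin minus control diet in each genotype; red marks an adjusted p under 0.05 over all probe sets. Rhbg (1.34) and Oat (0.62) are red on the quercetin diet, no probe set is red in the diet panels, and the control-diet genotype panel is drawn as a description without such marks.

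On the control diet, whose arrays are separate from those of the quercetin diet, POR-null liver also had higher Rhbg and Oat. Since this contrast was in view when the genes were chosen, its values are a description, no p-value is given and the count of calls supports nothing. The fit over all groups put 2 of 13 probe sets past its threshold here, both higher, beside 1.16% of all probe sets and 0.822% higher. Rhbg had 8.36, 8.03 and 7.58 in POR-null control arrays, against 7.10, 7.12 and 7.24 in wild-type control arrays, a difference of 0.84 ± 0.18 (SE, n = 3 arrays per group). POR-null control array 3 came nearest to wild type, but the groups did not overlap. Leaving out any of 8 single arrays took Rhbg back below that threshold: POR-null control arrays 1 and 2, POR-null quercetin array 2, wild-type control arrays 2 and 3, and each of the wild-type quercetin arrays. The difference was at its lowest, 0.65, without POR-null control array 1. Oat had 12.14, 12.002 and 11.90 in POR-null control arrays, against 11.26, 11.25 and 11.29 in wild-type control arrays, with no overlap. That difference was 0.75 ± 0.08 (SE, n = 3 arrays per group), or 1.68-fold.

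The other 6 genes were not among those past it. Glul probe set 1426235_a_at had 10.53, 10.66 and 10.66 in POR-null control arrays, against 10.67, 10.66 and 10.64 in wild-type control arrays, a difference of -0.04 with an interval of -0.20 to 0.12. The second Glul probe set read differently, with 10.50, 10.21 and 10.12 in POR-null control arrays against 10.11, 9.98 and 9.56 in wild-type control arrays. These groups did not overlap and differed by 0.39 ± 0.14 (SE, n = 3 arrays per group). Without wild-type control array 3, the lowest of the 12 on this probe set, the difference was 0.23. The pair of Glul probe sets correlated at r = -0.29 over the 12 arrays.

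Between these control-diet groups Slc1a2 differed by 0.23 (0.35 without POR-null control array 1 and 0.10 without array 2), Lect2 by 0.03, the Tbx3 probe sets by 0.07 and -0.21 and the brighter Axin2 probe set by -0.03. The brightest Ctnnb1 probe set, 1420811_a_at, differed by 0.24, and by 0.05 without wild-type control array 3, which read 8.71 against 9.30 and 9.24 in the other wild-type control arrays. The other Ctnnb1 probe sets differed by -0.02 and 0.00. Altogether 3 of 13 probe sets did not overlap between the groups, all higher in POR-null, beside 17.3% of all probe sets in either direction and 8.04% higher. The median difference of the 13 was 0.03, beside -0.01 for all probe sets.

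Rhbg and Oat could be compared array by array, since both were read from the same 12 pools. All 6 POR-null arrays stood above all 6 wild-type arrays for each gene. Over the 12 arrays the genes correlated at r = 0.88, and at r = 0.27 after each group mean was removed. Within POR-null quercetin livers, array 1 was the highest for Rhbg (8.72) and the lowest for Oat (12.04). Within POR-null control livers, array 1 was the highest and array 3 the lowest for both.

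**Figure D3:**
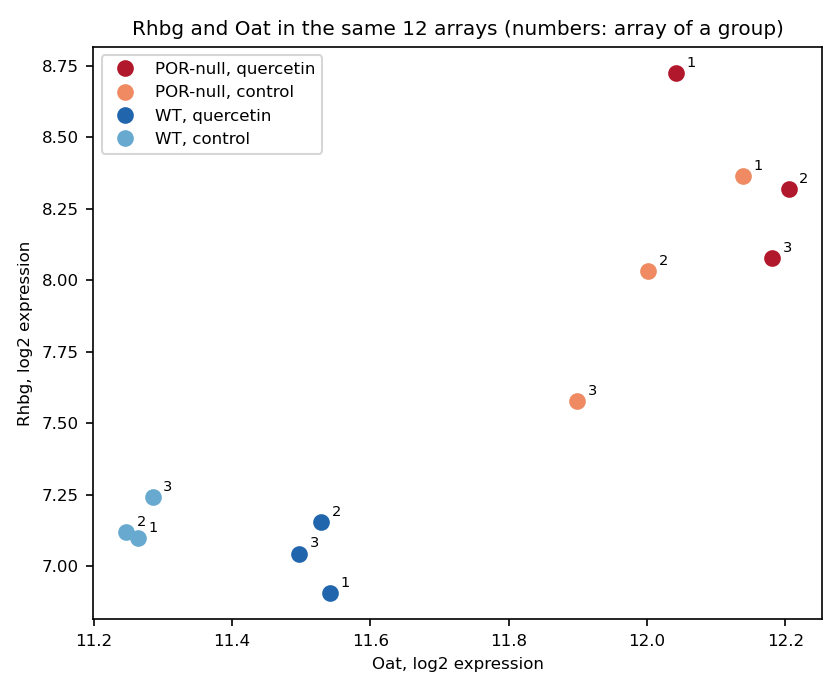
Rhbg (y axis) against Oat (x axis), both in log2 expression, in the 12 arrays, coloured by group and numbered by array. The 6 POR-null arrays lie at 7.58 or more for Rhbg and 11.90 or more for Oat, above all wild-type arrays (r = 0.88 over the arrays, 0.27 with group means removed).

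Quercetin against the control diet was compared within each genotype. None of the 13 probe sets passed by limma in either genotype, and 0% of all probe sets passed. An unadjusted p under 0.05 was found for 1 of the 13 in POR-null liver (Rhbg), beside 6.99% of all probe sets, and for 1 in wild-type liver (Oat), beside 8.58%. Each diet contrast shares its arrays with the genotype contrasts. In POR-null liver Rhbg, with the array values given above, differed by 0.38 ± 0.18 (SE, n = 3 arrays per group; limma adjusted p = 0.71), and the groups overlapped. The difference was 0.18 without POR-null control array 3 and 0.21 without POR-null quercetin array 1. In wild-type liver Rhbg differed by -0.12 ± 0.18 (SE, n = 3 arrays per group; limma adjusted p = 0.89). Oat differed by 0.13 ± 0.08 in POR-null liver (limma adjusted p = 0.79).

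In wild-type liver all 3 quercetin arrays of Oat (11.50 to 11.54) stood above all 3 control arrays (11.25 to 11.29). The difference was 0.26 ± 0.08 (SE, n = 3 arrays per group), with an interval of 0.09 to 0.43 and a limma adjusted p of 0.43. It was the single one of 13 probe sets without overlap in this contrast, beside 11.8% of all probe sets in either direction and 5.67% higher. In POR-null liver there were 0 of 13, beside 14.1% of all probe sets, 6.62% higher and 7.52% lower. Lect2 differed by 0.43 ± 0.26 with quercetin in POR-null liver and by -0.06 ± 0.26 in wild-type liver (SE, n = 3 arrays per group). Its arrays were widely spread, from 8.42 to 9.55 in POR-null control and from 8.23 to 9.26 in wild-type quercetin. The POR-null difference was 0.76 without POR-null control array 1 and 0.19 without POR-null control array 3. The remaining probe sets differed by -0.14 to 0.16 in POR-null liver and by -0.21 to 0.21 in wild-type liver. The highest of the wild-type values, that of Ctnnb1 probe set 1420811_a_at, was 0.03 without wild-type control array 3.

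Whether the response to quercetin depended on genotype was tested as an interaction, that is, the quercetin difference of POR-null liver less the one of wild-type liver. The highest value was that of Rhbg, 0.50 ± 0.25 (SE), with an interval of -0.04 to 1.04 and a limma adjusted p of 0.82. It was 0.29 without POR-null control array 3 and 0.32 without POR-null quercetin array 1. Lect2 stood at 0.49 ± 0.37, and between 0.20 (without wild-type quercetin array 1) and 0.81 (without POR-null control array 1) with an array left out. Oat stood at -0.13 ± 0.11 and the brighter Axin2 probe set at -0.29 ± 0.18, which was -0.15 without wild-type control array 2 and -0.19 without POR-null control array 3. None of the 13 probe sets passed by limma, 0% of all probe sets passed, and 0 of the 13 had an unadjusted p under 0.05, beside 6.17% of all probe sets.

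Other pericentral and WNT target genes were counted from a fixed list of 22 genes, of which 19 were measured. Slc13a3, Lhpp and Cldn2 rose in POR-null liver on the quercetin diet, and the same 3 genes were the ones called, also higher, on the control diet. This list and those below were chosen with earlier results of these arrays known. Their control-diet calls are therefore a description and not an independent repeat of the quercetin-diet calls. No gene of the list was called lower in either contrast. The groups did not overlap for 9 of the 19 genes on the quercetin diet, 7 higher and 2 lower in POR-null, beside 25.7% of all genes, and for 4 on the control diet, all higher, beside 17.8%. The 2 lower genes were Notum (-0.42, limma adjusted p = 0.15) and Hamp (-0.64, limma adjusted p = 0.26). Across the whole list 10 genes stood above 0 on the quercetin diet and 9 below. Over all 12393 genes, with 1 probe set each, 309 were called on the quercetin diet (231 higher) and 154 on the control diet (114 higher). The list's median difference was 0.04 on the quercetin diet and 0.05 on the control diet, beside -0.03 and -0.02 over all genes.

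Lhpp, a phosphatase that acts on phosphohistidine, had 8.79, 8.83 and 8.94 in POR-null quercetin arrays, against 7.50, 7.56 and 7.74 in wild-type quercetin arrays. The groups lay far apart, and the difference of 1.25 ± 0.15 (SE, n = 3 arrays per group) had a limma adjusted p of 0.0013. Lhpp on the control diet differed by 0.96 ± 0.15, a call lost without POR-null control array 1 or 2 (0.87 and 0.92). Cldn2, a tight junction protein, had 9.42, 9.25 and 9.21 in POR-null quercetin arrays, against 8.21, 8.48 and 8.60 in wild-type quercetin arrays, and differed by 0.86 ± 0.16 (limma adjusted p = 0.013). Slc13a3, a dicarboxylate transporter, had 6.38, 6.23 and 6.09 in POR-null quercetin arrays, against 5.51, 5.68 and 5.63 in wild-type quercetin arrays, and differed by 0.63 ± 0.12 (limma adjusted p = 0.017). Neither group pair overlapped. The calls on Cldn2 and Slc13a3 were lost without wild-type quercetin array 1 or 2 or POR-null quercetin array 1 or 2. Their differences were then 0.75 to 0.89 for Cldn2 and 0.55 to 0.66 for Slc13a3. Cldn2 on the control diet differed by 0.73 ± 0.16, a call that 10 of the 12 single arrays could each end by being dropped, and Slc13a3 by 0.80 ± 0.12, a call lost without wild-type control array 2 (0.78). With its probe sets averaged Slc13a3 gave 0.48 there. Of the 8 alternatives that were not single-array omissions, 1 ended the control-diet call for Lhpp, 1 for Slc13a3 and 3 for Cldn2.

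**Figure D4:**
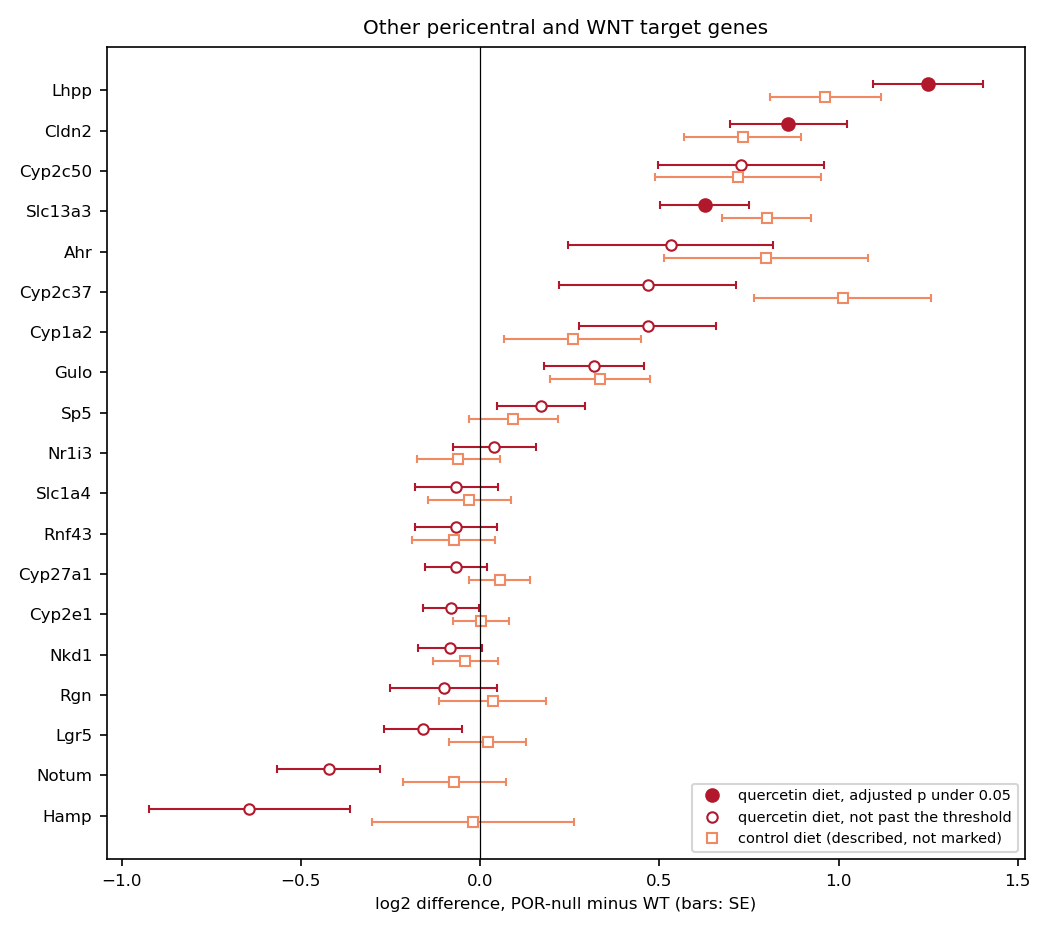
Log2 difference between POR-null and wild type (x axis, bars for SE) of the 19 measured genes of the pericentral and WNT target list (rows), on the quercetin diet (dark red, filled where the adjusted p was under 0.05) and on the control diet (orange squares, without such marks). Lhpp, Cldn2 and Slc13a3 are filled, and among the open genes some lie on either side of 0.

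Genes that handle ammonia, glutamine, glutamate and ornithine were counted from a list of 35, of which 30 were measured. Of these, 2 were called on the quercetin diet, beside 309 of all 12393 genes, and 3 on the control diet, beside 154. On the quercetin diet Gpt2, the mitochondrial alanine aminotransferase, rose by 1.16 ± 0.23 (SE, n = 3 arrays per group; limma adjusted p = 0.018) and Glud1, the glutamate dehydrogenase, fell by 0.46 on the log2 scale (limma adjusted p = 0.018). Gpt2 had 10.28, 10.27 and 10.24 in POR-null quercetin arrays, against 9.45, 8.70 and 9.15 in wild-type quercetin arrays. Glud1 had 11.25, 11.07 and 11.17 in POR-null quercetin arrays, against 11.66, 11.65 and 11.57 in wild-type quercetin arrays. Both sets of arrays were clear of each other. The call on Gpt2 was lost without wild-type quercetin array 2 or POR-null quercetin array 1 or 2 (0.96, 1.15 and 1.16). It was also lost in 1 of the 8 alternatives that were not single-array omissions. That on Glud1 was lost without the same arrays or wild-type quercetin array 1 (-0.50 to -0.42). The 3 genes called on the control diet were higher: the aspartate aminotransferase Got1 (1.16 ± 0.18), Gpt2 (1.10 ± 0.23) and the cationic amino acid transporter Slc7a2 (0.80 ± 0.18). With quercetin Got1 differed by 0.71 ± 0.18 (limma adjusted p = 0.053) and Slc7a2 by 0.685 ± 0.18 (limma adjusted p = 0.060). Neither pair of groups overlapped there, as for 10 of the 30 genes in all, beside 25.7% of all genes. The list's 3 control-diet calls became 7 without POR-null control array 3 and 0 with only the groups compared. Dropping 1 array ended the control-diet call on Gpt2 for 8 of the 12 arrays, on Slc7a2 for 10 and on Got1 for 0. Of the 8 other alternatives, 3 ended it for Gpt2, 5 for Slc7a2 and 1 for Got1. The list's median difference was 0.02 on the quercetin diet and 0.08 on the control diet, beside -0.03 and -0.02 over all genes.

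Periportal genes, the counterpart across the lobule, had 1 call among 19 measured on the quercetin diet. The groups did not overlap there for 8 of the 19, 1 higher and 7 lower in POR-null, beside 25.7% of all genes. By limma 47.4% of the periportal genes had an unadjusted p under 0.05 on that diet. The share was 42.1% in the pericentral list, 20% in the ammonia list and 17.6% of all genes. Hsd17b6, a hydroxysteroid dehydrogenase, had 7.23, 7.19 and 7.64 in POR-null quercetin arrays, against 8.92, 9.02 and 9.52 in wild-type quercetin arrays. It fell by 1.80 on the log2 scale (SE 0.35, n = 3 arrays per group; limma adjusted p = 0.015). That call was lost without wild-type quercetin array 2 or 3 or POR-null quercetin array 1 or 2 (-1.87 to -1.62), and with a robust variance prior (limma adjusted p = 0.082). As the mean of its probe sets Hsd17b6 stood at -0.97 (limma adjusted p = 0.029). No periportal gene was called on the control diet, although 3 were without POR-null control array 3. There G6pc (0.70 ± 0.18) and Uroc1 (-0.39 ± 0.12) were the lowest by p of 5 genes whose groups did not overlap, beside 17.8% of all genes. The list's median was -0.17 on the quercetin diet and 0.04 on the control diet. Of 63 measured WNT ligands, receptors and pathway components, 0 were called on the quercetin diet, where 9 had an unadjusted p under 0.05, or 14.3%, beside 17.6% of all genes. A single one was called on the control diet: Csnk1a1, the casein kinase that marks beta-catenin for destruction, at 0.37 ± 0.08, with 0.32 ± 0.08 on the quercetin diet (limma adjusted p = 0.057). Dropping 1 array ended that control-diet call for 10 of the 12 arrays, and the mean of its probe sets stood at 0.21, not called. Sfrp1, a secreted WNT antagonist, differed by -0.30 on the quercetin diet without overlap (limma adjusted p = 0.11). The median of that list was -0.06 on the quercetin diet and -0.04 on the control diet. Over all genes the medians were -0.03 and -0.02.

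By diet, 0 genes of these 4 lists were called in either genotype by limma. Genes without overlap between diets in wild-type liver made up 26.3% of the pericentral, 31.6% of the periportal and 23.3% of the ammonia list. They made up 6.35% of the WNT components, beside 11.9% of all genes. In POR-null liver the shares of these 4 lists were 10.5%, 15.8%, 23.3% and 12.7%, beside 14.5% of all genes. In wild-type liver Hal, which starts histidine breakdown, differed by 0.90 ± 0.16, Got1 by 0.79 ± 0.18 and Arg1, arginase, by 0.41 ± 0.10, with no overlap between quercetin and control arrays. Hamp, the iron hormone hepcidin, differed by 0.86 ± 0.28 and Cyp27a1, a sterol hydroxylase, by 0.25 ± 0.09, likewise without overlap. In POR-null liver Prodh, proline dehydrogenase, differed by 0.42 ± 0.13, Lhpp by 0.44 ± 0.15, and Rhcg, a relative of Rhbg, by -0.28 ± 0.10 (SE, n = 3 arrays per group throughout; limma adjusted p from 0.20 to 0.64 for these 8 genes). Among the WNT ligands Wnt3 differed by 0.46 in POR-null liver (limma adjusted p = 0.61) and Wnt10a by -0.25 in wild-type liver (limma adjusted p = 0.52). Sfrp1 differed by -0.21, Cyp27a1 by 0.13 and Arg1 by 0.25 in POR-null liver, and Csnk1a1 by 0.19 in wild-type liver, with limma adjusted p of 0.57 or more.

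The genes whose pattern over the 12 arrays was most like that of Oat, among 7394 genes with a mean above the median of all values, were S100a10 (Pearson's r = 0.98), 2010003K11Rik (0.97), Psmd8 (0.97), Cyp2b10 (0.97) and Cyp7a1 (0.96). After group means were removed these r were 0.78, 0.56, 0.79, 0.61 and 0.60. All share the arrays and the difference between genotypes with Oat. For Glul (1426235_a_at), which varied little, they were Wdr13 (0.89), Cfi (0.88), Nxnl1 (0.87), Etnk1 (0.87) and Wdr43 (0.86), with r of 0.83 to 0.94 after group means were removed. These values describe 12 arrays of 4 groups and carry no test.

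Markers of other liver cells were set beside these results. The mean log2 level of 8 Kupffer cell and macrophage markers was 7.56 to 7.77 in POR-null quercetin arrays, against 7.29 to 8.01 in wild-type quercetin arrays. With the control diet it was 7.47 to 7.76 in POR-null arrays, against 7.07 to 7.46 in wild-type arrays, which did not overlap. Endothelial cells include the WNT sources of the central vein, and their 9 measured markers averaged 6.38 to 6.50 in POR-null quercetin arrays, against 6.49 to 6.50 in wild-type quercetin arrays, and 6.49 to 6.61 in POR-null control arrays, against 6.44 to 6.47 in wild-type control arrays, without overlap on the control diet. The 4 hepatocyte markers averaged 13.06 to 13.22 in POR-null quercetin arrays, against 13.23 to 13.33 in wild-type quercetin arrays, without overlap. The 8 measured markers of exocrine pancreas, a neighbouring tissue, averaged 7.02, 7.74 and 10.03 in POR-null quercetin arrays 1 to 3. In wild-type quercetin arrays they averaged 6.41 to 8.48. All 8 stood higher in POR-null on that diet, with a median difference of 0.996. With the control diet they averaged 6.72 to 8.53 in POR-null arrays, against 6.81 to 8.77 in wild-type arrays. POR-null quercetin array 3 had the lowest Rhbg of its group (8.08), but not the lowest Oat (12.18, against 12.04 in array 1). Without array 3 Rhbg differed by 1.49 on the quercetin diet. Cholangiocyte and stellate cell markers averaged 5.17 to 5.37 and 6.25 to 6.58 in POR-null quercetin arrays, against 5.28 to 5.55 and 6.33 to 6.49 in wild-type quercetin arrays. With the control diet the stellate markers averaged 6.367 to 6.625 in POR-null arrays, against 6.306 to 6.355 in wild-type arrays, without overlap. The cholangiocyte markers overlapped there (5.272 to 5.484 against 5.352 to 5.535). No marker gene of any of these 6 lists was called by limma in either genotype contrast, although the unadjusted p was under 0.05 for 4 of the 8 macrophage, 2 of the 6 stellate, 1 of the 9 endothelial and 1 of the 4 hepatocyte markers on the control diet, beside 15.8% of all genes. It was so for 1 macrophage and 2 hepatocyte markers on the quercetin diet, beside 17.6% of all genes. The median difference of the macrophage markers was 0.41 on the control diet and 0.24 on the quercetin diet. The part of other cells in the levels of Rhbg and Oat was not tested.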

How the data were processed

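Each array measured total RNA of liver pooled from 3 mice. The deposited values are log2 expression per probe set, between 2.57 and 14.2. MAS5 and RMA are the tools listed, with no version, in the submitters' processing notes. Nothing used here says which one the authors ran to make the deposited log2 values. No further normalization was applied. Of 22690 probe sets, 64 controls were left out. Symbols came from the platform annotation, where 20380 of the tested probe sets carried 1 symbol, 691 several and 1555 none, and 20351 had a gene identifier found in RefSeq's GRCm38.p6 gene table, with 0 symbols changed. Groups and pool numbers came from the sample titles.

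The linear model (limma 3.58.1, R 4.3.3) had a mean for each of the 4 groups and used all 12 arrays. It was fitted with eBayes and a trend of variance on expression, with two-sided tests and Benjamini-Hochberg adjustment over 22626 probe sets at 0.05. Fold changes are differences of log2 means with moderated SE. The 95% confidence interval of a difference had a median half-width of 0.24, a precision set by the number of arrays. Where 1 probe set had to stand for a gene, it was the one with the highest mean. In data simulated for POR-null against wild type on the quercetin diet with the residual spread of the 22626 probe sets, limma found 48.0% of the probe sets shifted by 0.5 on the log2 scale and 94.8% of those shifted by 1. False calls averaged 7.6 in each of 5 runs. Each run shifted 200 probe sets and drew normal noise separately for every probe set around the wild-type control means. Deviations that many probe sets of an array share were therefore not simulated.

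The 8 genes, the lists and the markers were chosen with earlier results of these data known. Named list genes were the called ones, at most 4 per list and contrast by lowest p, or otherwise at most 2 whose groups did not overlap. Beyond this rule, Notum, Hamp, Got1 and Slc7a2 were named on the quercetin diet, where the groups of each did not overlap. Likeness was Pearson's r, for the 5 highest genes. Promoters were scanned in Python 3.11.15 and figures drawn with matplotlib 3.10.9. The alternatives were a filter on dim probe sets (the lowest 40%), quantile normalization, eBayes without the trend, eBayes with the robust option, array weights, a block for pool number, a fit restricted to the groups compared, gene means, and omission of each array in turn. The labels do not say that a pool number is shared between groups, and same-numbered arrays deviated from their group means at r = -0.18 to 0.24, with 5 of 18 pairs over 0.1, so no pairing was assumed.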

Additional observations from a re-analysis of the deposited data

How the results depend on the processing

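The counts of called probe sets among the 13 were the same in all alternatives for POR-null against wild type on the quercetin diet (2) and for the diet and interaction contrasts (0). On the control diet the count was 2, but 1 with only the groups compared and 1 with gene means, and 1 to 2 with an array left out. Oat was called in every alternative on both diets, and it was Rhbg that lost its control-diet call, in 10 of 20 alternatives. The level of Oat on the control diet was in view when the genes were chosen, so its calls kept there support nothing. With the pool number as a replicate block the counts were 2 on each diet, and the block changed no call of the 8 genes. It ended the control-diet calls of Csnk1a1 and Slc7a2, moved the calls among all probe sets for quercetin in wild type to 2, and added 1 periportal gene on the control diet.

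Of 792 alternative values of the 8 genes, 745 kept direction and side of the threshold, 10 lost the call and 37 changed sign, all 37 in values that were not called. Between genotypes on the control diet Lect2 stood at -0.043 after quantile normalization, Tbx3 at -0.032 with array weights and -0.071 as a gene mean, and Glul at 0.175 as a gene mean (0.015 on the quercetin diet and 0.07 for quercetin in wild type). For quercetin in POR-null, Slc1a2 stood at -0.029 after quantile normalization and Tbx3 at -0.013 as a gene mean. With an array left out, the control-diet genotype difference ranged from -0.167 to 0.088 for Axin2, -0.108 to 0.258 for Tbx3, -0.295 to 0.267 for Lect2 and -0.064 to 0.000 for Glul. The quercetin difference in POR-null ranged from -0.096 to 0.149 for Slc1a2, -0.141 to 0.184 for Tbx3 and -0.084 to 0.001 for Glul. In wild type it ranged from -0.016 to 0.004 for Glul, -0.142 to 0.017 for Slc1a2, -0.188 to 0.115 for Tbx3 and -0.279 to 0.235 for Lect2. The interaction ranged from -0.130 to 0.236 for Tbx3, -0.237 to 0.056 for Ctnnb1, -0.008 to 0.237 for Slc1a2 and -0.080 to 0.005 for Glul. The cause was not tested.

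Among all probe sets the 262 calls of the control-diet genotype contrast became 30 to 337 in the other fits and 35 to 756 with an array left out, and the 527 of the quercetin diet became 352 to 1052 and 127 to 680. The 0 calls for quercetin in wild type became 151 without wild-type control array 1. Called genes of the pericentral list (3 on each diet) ranged from 0 to 4 on the control diet and from 1 to 5 on the quercetin diet. On the control and quercetin diets the called genes ranged from 0 to 7 and 0 to 4 for the ammonia list (3 and 2 as reported), 0 to 3 and 0 to 4 for the periportal list (0 and 1), and 0 to 1 on both for the WNT components (1 and 0). These list alternatives were added after seeing the data. The file holds no detection calls, so dim probe sets such as those of Tbx3 and the dimmer Axin2 probe set limit what can be seen.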

Other observations

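Wild-type control array 3 stood apart on several of these probe sets in opposite directions. It was the lowest of the 12 arrays on Glul probe set 1426236_a_at (9.56, against 10.11 and 9.98 in the other arrays of its group) and on Ctnnb1 probe set 1420811_a_at (8.71, against 9.30 and 9.24). It was the highest of the 12 on Tbx3 probe set 1439567_at (6.24, against 5.62 and 5.93). After group means were removed, Glul 1426236_a_at correlated with Ctnnb1 1420811_a_at at r = 0.85 and with Tbx3 1439567_at at r = -0.89 over the 12 arrays. These pairs were chosen after that array had been seen to stand apart on them, so the correlations describe the same array again. The pair of Glul probe sets stood at r = -0.04 and Ctnnb1 probe sets 1430533_a_at and 1450008_a_at at r = 0.72 on the same measure.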
